A study of Mus musculus with 12 samples.

Results

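Cytosolic ribosomal protein genes code for the proteins of the ribosomes that translate nuclear-encoded messages. They were chosen here by gene symbol alone (Rpl or Rps followed by a number, Rplp0 to Rplp2, and Rpsa, leaving out the Rps6k kinases), which gave 82 of the 16353 genes in the deposited table, 51 named for the large subunit and 31 for the small subunit. The study measured messenger RNA in KB5 CD8 T cells of the mouse strain CBA/J, T cells with a transgenic receptor for an antigen of C57BL/6 mice, to follow their expression during costimulation blockade. Cells were sorted from spleen on the KB5 receptor and CD8 to a purity of 95%, treated mice being taken after 12 h. Each of the 4 groups had 3 libraries.

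The naive group came from untreated mice. The activated group came from mice injected intravenously with 10 M (M, mega) C57BL/6 splenocytes. Mice of the tolerized group had these splenocytes and, into the peritoneum, the costimulation-blocking antibody anti-CD154 at 0.5 mg. Mice of the inflamed group had both and also 100 µg of LPS, a bacterial lipopolysaccharide, into the peritoneum. The last 3 groups therefore all met the antigen and are called the antigen-exposed groups here. The libraries are called independent in the labels, but nothing says that each came from a separate mouse, so p-values measure the spread between these libraries.

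Each ribosome holds a single copy of nearly every ribosomal protein, and the large and small subunits are built in the nucleolus around newly made ribosomal RNA. Ribosomal protein messages belong to the TOP class, which begins with a run of pyrimidines and whose translation is switched by mTOR and the binding protein LARP1, so their RNA level and their translation can part. T cells that meet antigen are known to enlarge and to make many new ribosomes. Several ribosomal proteins also have close paralogs or tasks outside the ribosome.

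Levels are given in CPM, read counts per M reads after scaling by the trimmed mean of M-values method, and changes on the scale log2(CPM + 1). A gene is called when its adjusted p in limma is under 0.05. The 82 members lay on 19 chromosomes of GRCm38.p6 by RefSeq and were short, with a median deposited exon length of 717.5 bases against 2690 for all genes of the table. Of these, 79 passed the filter on low counts. Rpl10l had 5 reads in 1 library, Rpl3l 12 reads in 4 libraries and Rpl39l 32 reads in 6 libraries, with at most 10 reads in any library for the 3 genes. All 3 are copies of a ribosomal protein gene that are known for use in testis or muscle. Many ribosomal protein genes also have near-identical processed pseudogenes, and how reads that match both were counted is not given in the sources used here, so the level of any member carries that uncertainty.

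The starts of ribosomal protein genes are shown because the members moved apart from each other although their promoters are known for a shared pyrimidine-rich start. RefSeq promoter sequences of GRCm38.p6 were at hand for 62 of the 82 members. The 7 printed here run from 80 bases before to 20 bases after the listed start on the gene's own strand and belong to members with 1 listed start: 4 called higher and 3 called lower in activated against naive cells. Capitals mark every match in these windows to the letters searched for: CTTTC, a pyrimidine run, on the gene's strand, CCGGAAG, known from ETS sites, on either strand, CACGTG, the E-box of MYC and related factors, GCCATCTT, letters of YY1 sites, on either strand, GGGCGG, known from SP1 sites, on either strand (read from the other strand it is CCGCCC), and, before the start on the gene's strand, TATAAA, the TATA box.
Rpl7l1, higher, chr17:46782637-46782736, minus strand: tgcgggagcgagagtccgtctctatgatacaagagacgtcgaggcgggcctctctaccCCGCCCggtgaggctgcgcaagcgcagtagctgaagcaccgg
Rps2, higher, chr17:24719983-24720082, plus strand: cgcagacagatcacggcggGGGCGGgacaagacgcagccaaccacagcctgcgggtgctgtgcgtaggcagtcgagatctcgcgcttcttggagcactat
Rpl7a, higher, chr2:26910727-26910826, plus strand: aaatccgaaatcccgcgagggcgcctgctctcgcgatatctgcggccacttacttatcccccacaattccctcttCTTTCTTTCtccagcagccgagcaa
Rps12, higher, chr10:23787190-23787289, minus strand: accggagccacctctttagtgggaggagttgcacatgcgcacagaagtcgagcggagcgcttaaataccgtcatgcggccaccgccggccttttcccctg
Rps16, lower, chr7:28350609-28350708, plus strand: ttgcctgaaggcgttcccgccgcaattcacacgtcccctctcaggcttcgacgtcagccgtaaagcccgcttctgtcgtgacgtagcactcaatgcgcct
Rps10, lower, chr17:27635225-27635324, minus strand: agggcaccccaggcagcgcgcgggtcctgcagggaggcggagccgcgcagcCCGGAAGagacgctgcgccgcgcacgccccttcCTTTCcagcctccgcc
Rpl13a, lower, chr7:45128726-45128825, minus strand: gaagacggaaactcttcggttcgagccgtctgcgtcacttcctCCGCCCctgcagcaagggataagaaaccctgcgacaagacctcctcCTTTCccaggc

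Over the promoters at hand, CTTTC within 50 bases of the start was found in 31 of 62 members and in 14.6% of all 27025 genes with a promoter. CCGGAAG, searched from 250 bases before to 50 after the start, were found in 26 members (41.9%) and 9.9% of all genes. GGGCGG was found in 39 members (62.9%) and 38.2% of all genes. CACGTG was found in 6 members (9.7%) and 8.1% of all genes. GCCATCTT was found in 5 members (8.1%) and 3.2% of all genes. TATAAA within 60 bases before the start was found in 1 member (1.6%) and 3.4% of all genes. The pyrimidine letters CTTTC were as frequent among members that were called higher in all 3 antigen-exposed groups (9 of 18 with a promoter) as among all members, and were found in 4 of the 6 with a promoter that were called lower in all 3. Searches for different letters can overlap, and a match describes the sequence only.

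Libraries held from 29.3 M to 84.5 M reads. Ribosomal protein genes took 11.35%, 11.55% and 11.65% of the reads of the naive libraries, a mean of 11.5% ± 0.152 (SD, n = 3). Their share was 10.06%, 9.94% and 9.54% in the activated libraries (9.85% ± 0.271), 9.11%, 9.74% and 9.56% in the tolerized libraries (9.47% ± 0.325) and 9.74%, 10.42% and 9.94% in the inflamed libraries (10.03% ± 0.350). All 3 naive libraries lay above all 9 antigen-exposed libraries. The activated libraries overlapped with both other groups, and every tolerized library lay below every inflamed one, the nearest pair at 9.738% and 9.74%. The order of the group means was the same without the 10 largest other genes of each library, with mean shares of 12.06%, 10.51%, 10.11% and 10.72%. These are shares of sequenced RNA, and in bulk samples fewer cells of a type and less RNA per cell cannot be told apart.

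Naive libraries also held more RNA of macrophage, B cell and erythroid markers. The summed level of 11 macrophage markers was 920 to 2323 CPM in naive, 69.1 to 822 CPM in activated, 50.1 to 159 CPM in tolerized and 14.2 to 427 CPM in inflamed libraries. The 7 B cell markers summed to 338 to 430 CPM in naive libraries and to 77.8 to 166 CPM in the others, and the 8 erythroid markers to 1002 to 2414 CPM against 19.8 to 302 CPM. The 9 CD8 T cell markers summed to 4570 to 5645 CPM in naive libraries and to 2281 to 3657 CPM in the others. No gene on these lists was at 0 in any group's mean. The first library of each antigen-exposed group also stood apart in its counts: 55.6% to 57.6% of its values from 1 to 20 were even, against 61.4% to 64.4% in the other 9 libraries. Even values were in excess in all 12 libraries, and whether the mates of a read pair were counted as 2 is not given in the sources used here, so a count of reads, the filter at 10 reads included, may stand for fewer fragments. The part of these differences in the results was not tested, and leading results were repeated without such libraries. Leaving out the 2 naive libraries richest in macrophage markers keeps 1 naive library, so that repeat gives sizes of change only. The naive library kept held 920 CPM of the macrophage and 1138 CPM of the erythroid markers.

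The summed reads of large subunit genes were compared with those of small subunit genes inside each library, a ratio that no scaling between libraries can change. It was 1.321, 1.314 and 1.309 in the naive libraries, 1.510, 1.454 and 1.419 in the activated, 1.564, 1.471 and 1.480 in the tolerized and 1.517, 1.413 and 1.453 in the inflamed libraries. All 9 antigen-exposed libraries lay above all 3 naive ones, with group means of 1.315 ± 0.00596, 1.461 ± 0.0459, 1.505 ± 0.0512 and 1.461 ± 0.0524 (SD, n = 3), and the 3 antigen-exposed groups overlapped. The gap was present per kilobase of exon (1.227, 1.359, 1.396 and 1.369). Without the 4 genes Rps2, Rps27l, Rpl7l1 and Rpl22l1 the mean ratios of large to small subunit reads were 1.349, 1.572, 1.621 and 1.583. That wider gap follows from the choice, since Rps2 and Rps27l had the largest rises of the small subunit in activated cells. No test was made of this ratio, since it sums members chosen with results known.

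**Figure D1:**
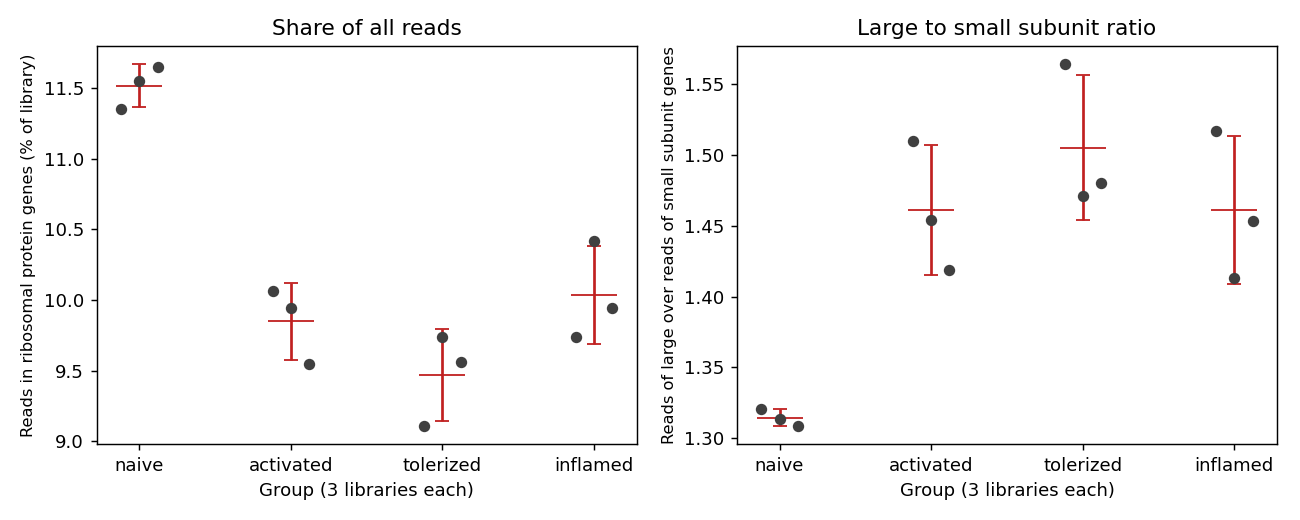
Left, reads in the 82 ribosomal protein genes as a percentage of all reads of each library; right, reads of large over reads of small subunit genes. Points are the 3 libraries of each group and red bars the group mean ± SD; the vertical axes do not start at 0. Naive libraries are the highest on the left (11.35% to 11.65%) and the lowest on the right (1.309 to 1.321).

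In activated against naive cells, limma called 24 members higher and 18 lower of 79 tested, or 53.2%, where 70.7% of all 12499 genes tested were called (35.3% higher and 35.3% lower). The quartiles of the members' log2 changes were −0.24 and 0.30, against −0.73 and 0.67 for all genes, and their median was 0.02 beside −0.04. How many members counted as higher depended on the scaling. With library size alone 12 were higher and 41 lower, and with upper quartile factors 12 and 33. Of all 12499 genes tested, 9187 and 9089 were called in those 2 settings. Those settings moved the median of all genes to −0.26 and −0.20 and the members' median with it, to −0.26 and −0.18. Without the 2 naive libraries richest in macrophage markers, which left 1 naive library, the members' median was 0.03 beside 0.01 for all genes. Without the first library of each antigen-exposed group 23 members were called higher and 19 lower, or 53.2%, where 68.3% of all genes were called.

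Calls were then counted by subunit. Of 48 large subunit genes tested, 19 were higher and 8 lower in activated cells, with a median of 0.16, and of 31 small subunit genes 5 were higher and 10 lower, with a median of −0.16. In tolerized cells the counts were 20 and 11 for the large subunit (median 0.19) and 4 and 14 for the small (median −0.23). In inflamed cells they were 25 and 6 (median 0.27) and 5 and 8 (median −0.11). Of the large and small subunit genes, 56.2% and 48.4% were called in activated cells, where 70.7% of all genes were called. Those shares were 64.6% and 58.1% beside 73.3% in tolerized, and 64.6% and 41.9% beside 72.4% in inflamed cells. The all-gene shares called higher and lower were 35.3% and 35.3% in activated, 37.4% and 35.9% in tolerized, and 36.9% and 35.5% in inflamed cells. With library size alone both medians for activated cells were below 0 (−0.12 large, −0.44 small), and 9187 of all 12499 genes were called. The counts were then 9 higher and 18 lower for the large and 3 and 23 for the small subunit. A scaling moves both medians alike, so the gap between them does not depend on it.

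The small subunit's counts and medians depended on which libraries entered. Without the 2 macrophage-rich naive libraries its genes called higher and lower were 3 and 4 in activated, 4 and 5 in tolerized and 5 and 3 in inflamed cells, with medians of −0.11, −0.13 and −0.08, and those of the large subunit were 9 and 4, 11 and 5, and 15 and 4. Without the first antigen-exposed libraries the small subunit had 4 and 11, 4 and 11, and 7 and 6, with medians of −0.14, −0.10 and −0.03. Its median in tolerized cells was −0.12 without the first tolerized library alone, and in inflamed cells −0.05 without the first and −0.07 without the third inflamed library. Its lower genes in activated cells were 6 without the second naive or the second activated library. Of all genes tested, 7840 of 12272 and 8166 of 12524 were then called. In inflamed cells the small subunit's lower genes were 5 without the second naive, the second inflamed or the third inflamed library. Of all genes tested, 8148 of 12272, 8594 of 12430 and 8457 of 12456 were then called. The large subunit's lower genes in tolerized cells were 7 without the second naive library, where 8267 of 12272 genes were called.

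Across the 79 members tolerized cells had 24 called higher and 25 lower (62.0%, where 73.3% of all genes were called, 37.4% higher and 35.9% lower), with a median of −0.0007 beside −0.01 for all genes. Inflamed cells had 30 higher and 14 lower (55.7%, where 72.4% of all genes were called, 36.9% higher and 35.5% lower), with a median of 0.12 beside −0.01. With library size alone the counts were 11 and 43 in tolerized and 15 and 40 in inflamed cells, where 9446 and 9351 of all 12499 genes were called. With upper quartile factors they were 13 and 38, and 16 and 32, where 9348 and 9243 of all genes were called. Without the 2 macrophage-rich naive libraries, tolerized cells had 15 higher and 10 lower (31.6%, where 53.2% of all genes were called) and inflamed cells 20 and 7 (34.2%, where 54.2% were). Without the first antigen-exposed libraries the counts were 28 and 22 (63.3%, where 71.5% of all genes were called), and 33 and 12 (57%, where 72.4% were). These 3 comparisons share the naive libraries and so are not independent of each other. They called 22 members higher in all 3 and 11 lower in all 3, none in opposite directions, and 24 members in none. How many of all genes share these patterns was not counted, so the numbers describe the members only.

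The 22 held 18 large subunit genes (Rpl3, Rpl4, Rpl6, Rpl7, Rpl7a, Rpl7l1, Rpl10, Rpl10a, Rpl14, Rpl15, Rpl18, Rpl24, Rpl27, Rpl29, Rpl32, Rpl35, Rpl37 and Rpl41) and the 4 small subunit genes Rps2, Rps12, Rps26 and Rps27l. Under all 4 scalings 10 of these were called higher in all 3 comparisons: Rpl3, Rpl7a, Rpl7l1, Rpl15, Rpl24, Rpl29, Rpl41, Rps2, Rps12 and Rps27l. The 11 lower members included Rpl17, Rpl30, Rpl35a, Rplp1, Rps10, Rps16, Rps19, Rps21, Rps24 and Rps29, and all 11 were called lower in all 3 comparisons under each of the 4 scalings. With 1 naive library, after leaving out the 2 macrophage-rich ones, Rpl17, Rpl30, Rps16, Rps21 and Rps29 changed by −0.46, −0.38, −0.44, −0.64 and −0.59 in activated cells. Rps2, Rpl7a and Rps12 changed by 1.33, 0.91 and 0.69.

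**Figure D2:**
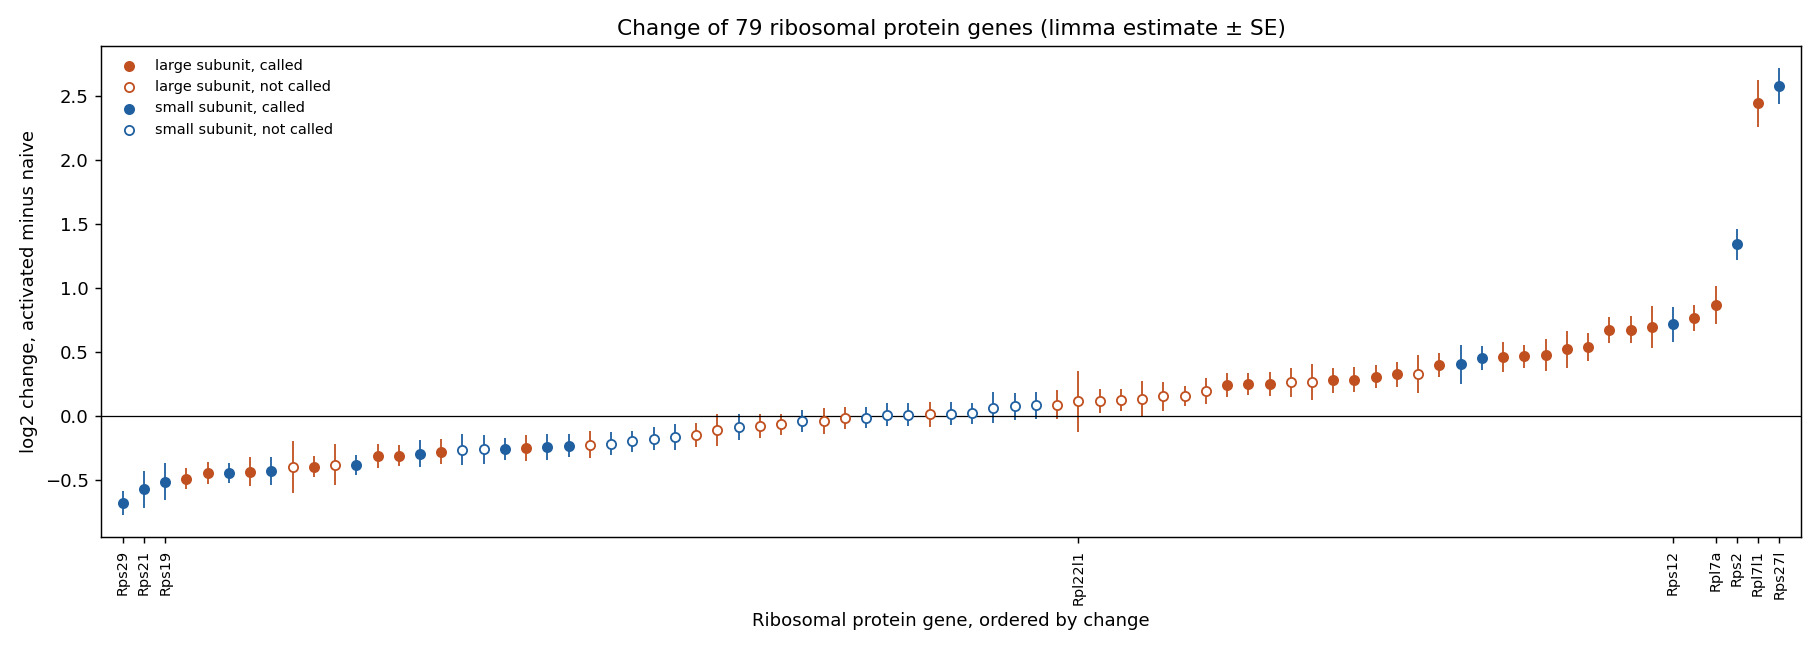
Change in activated against naive cells for each of the 79 ribosomal protein genes tested, ordered by size: vertical axis, log2 change with bars for ± SE of limma; orange, large subunit; blue, small subunit; filled, called at an adjusted p under 0.05; 9 genes are labelled on the horizontal axis. Most members lie within 0.5 of 0, and Rps2, Rpl7l1 and Rps27l stand above the rest at 1.34, 2.45 and 2.58.

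The gene with the largest rise among members at high level was Rps2, whose protein lies at the entry of the messenger RNA channel of the small subunit. It stood at 1229, 1263 and 1173 CPM in naive libraries, at 3540, 3210 and 2614 CPM in activated, at 3165, 3083 and 2881 CPM in tolerized and at 3445, 3605 and 3557 CPM in inflamed libraries. No antigen-exposed library came near the naive ones. Rps2 rose from 1222 ± 45.3 to 3121 ± 469 CPM (SD, n = 3) in activated cells, a log2 change of 1.34 ± 0.12 (SE; limma adjusted p = 4.06e-06), and by 1.31 in tolerized and 1.53 in inflamed cells.

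Rpl7a, a large subunit protein at the ribosome's surface, stood at 875, 926 and 905 CPM in naive and at 1987, 1630 and 1375 CPM in activated libraries. It reached 2021, 1672 and 1563 CPM in tolerized and 2074, 1657 and 1823 CPM in inflamed libraries. The groups did not overlap with naive cells, and the first library of each antigen-exposed group was the highest of its group. The log2 change was 0.87 ± 0.15 in activated (limma adjusted p = 0.000446), 0.95 in tolerized and 1.03 in inflamed cells. Without those first libraries the changes were 0.76, 0.87 and 0.98, each called.

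Rps12, of the small subunit's head, rose from 1200, 1230 and 1096 CPM in naive to 2359, 1821 and 1683 CPM in activated libraries, a log2 change of 0.72 ± 0.14 (limma adjusted p = 0.000898). Its levels were 2255, 1937 and 1884 CPM in tolerized and 2409, 2069 and 2297 CPM in inflamed libraries, all above the naive ones. Rpl29, a large subunit protein, rose from 540 ± 14.5 to 923 ± 120 CPM, and Rpl41, the shortest ribosomal protein, from 637 ± 30.9 to 1054 ± 248 CPM (SD, n = 3). Rpl24, a bridge between the subunits, went from 453 ± 16.1 to 730 ± 113 CPM and Rpl15 from 782 ± 12.9 to 1254 ± 153 CPM. Their log2 changes in activated cells were 0.77, 0.70, 0.68 and 0.67, and each was also called in tolerized and inflamed cells.

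The largest fall was that of Rps29, a short zinc-binding protein of the small subunit. It stood at 1136, 1216 and 1275 CPM in naive, 804, 773 and 688 CPM in activated, 610, 687 and 657 CPM in tolerized and 616, 707 and 653 CPM in inflamed libraries. All antigen-exposed libraries lay below all naive ones. The tolerized libraries also lay below the activated ones, but that difference of −0.21 was not called (limma adjusted p = 1). Rps29 fell by 0.68 ± 0.09 on the log2 scale in activated cells (limma adjusted p = 8.57e-05), by 0.89 in tolerized and by 0.88 in inflamed cells.

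Rps21 fell from 808 ± 41.4 CPM in naive to 543 ± 25.9, 478 ± 71.3 and 505 ± 96.7 CPM in activated, tolerized and inflamed cells (SD, n = 3). Rps19, the gene most often mutated in Diamond-Blackfan anaemia, fell from 1075 ± 31.1 CPM to 755 ± 53.1, 655 ± 94.3 and 754 ± 142 CPM. Rps16 fell from 1562 ± 17.6 CPM to 1149 ± 57.8 CPM in activated cells, and stood at 1067, 1019 and 1032 CPM in tolerized and 1115, 1199 and 1106 CPM in inflamed libraries. In all 3 genes every antigen-exposed library lay below every naive library. The log2 changes in activated cells were −0.57 ± 0.15, −0.51 ± 0.15 and −0.44 ± 0.08 (limma adjusted p = 0.00488, 0.00884 and 0.000508). Without the 2 macrophage-rich naive libraries, which left 1 naive library, Rps19 changed by −0.47 in activated, −0.68 in tolerized and −0.49 in inflamed cells. On the large subunit Rpl17 fell by 0.49 and Rpl30 by 0.45 in activated cells, and by 0.53 and 0.63 in tolerized cells.

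The ratio of 2 small subunit messages within each library does not depend on scaling either. Rps2 had 1.081, 1.039 and 0.920 times the reads of Rps29 in the naive libraries. It had 4.40, 4.15 and 3.80 times as many in the activated, 5.18, 4.49 and 4.38 in the tolerized and 5.59, 5.10 and 5.45 in the inflamed libraries. The 2 genes were paired as the largest rise and the largest fall among members at high level, so the size of this gap describes the choice.

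**Figure D3:**
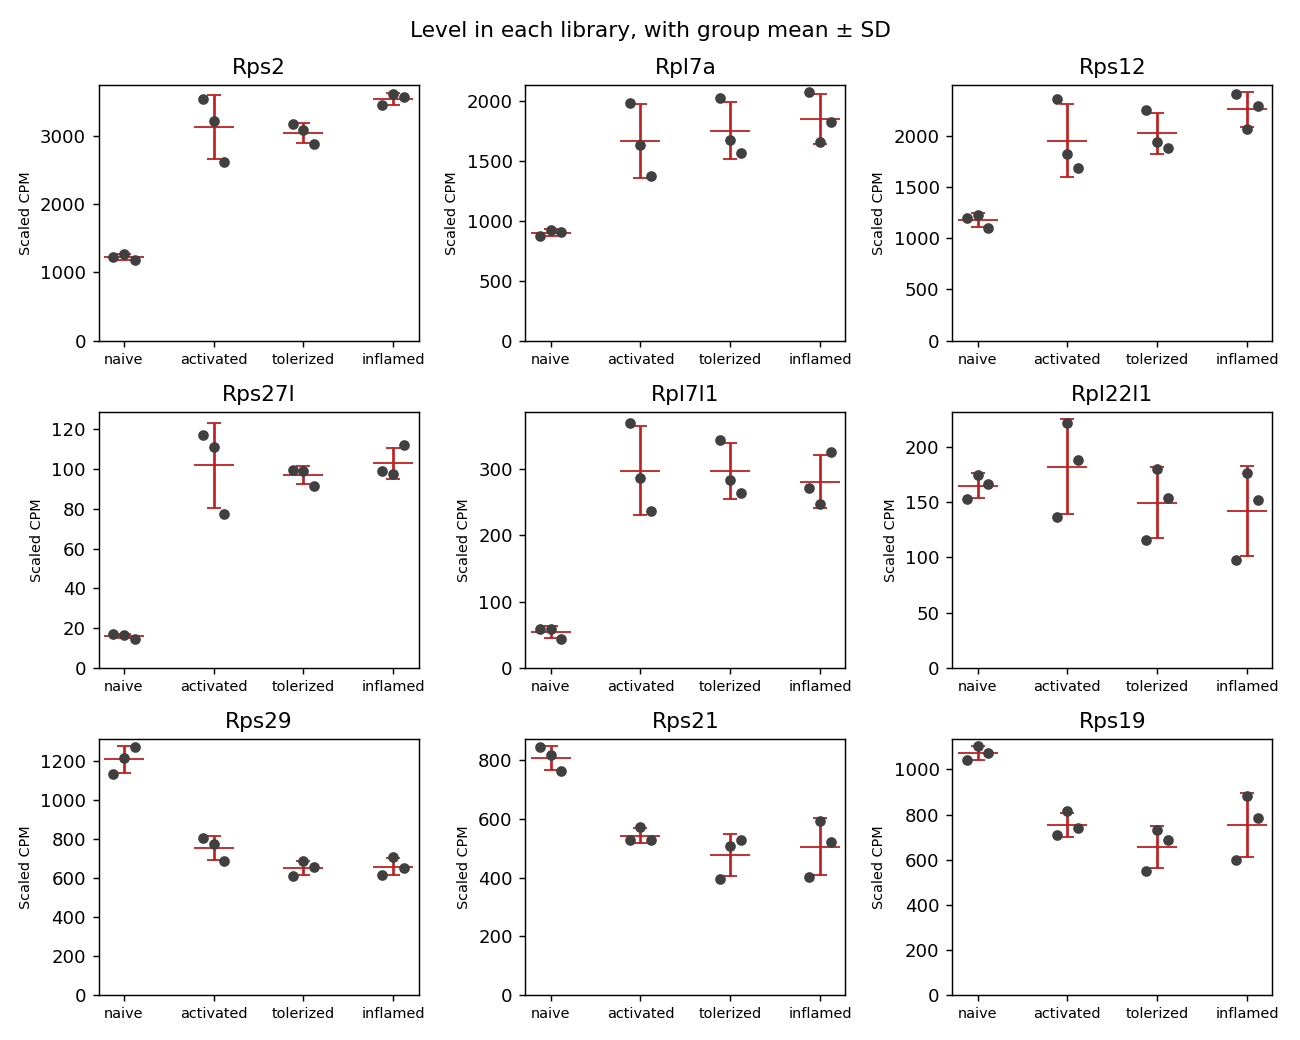
Level of 9 ribosomal protein genes in scaled CPM (vertical axes from 0), with 1 point per library and red bars for the group mean ± SD (n = 3). Rps2, Rpl7a, Rps12, Rps27l and Rpl7l1 are lowest in naive libraries, Rps29, Rps21 and Rps19 are highest there, and the groups overlap for Rpl22l1.

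The paralogs were measured beside the genes they resemble. Rps27l, a copy of Rps27 known as a target of p53, stood at 16.8, 16.5 and 14.6 CPM in naive libraries and at 117, 111 and 77.5 CPM in activated libraries. It was 99.6, 99.2 and 91.7 CPM in tolerized and 99.2, 97.3 and 112 CPM in inflamed libraries. The naive group lay below all others, with a log2 change of 2.58 ± 0.14 in activated (limma adjusted p = 1.93e-07), 2.53 in tolerized and 2.61 in inflamed cells, the largest of any member. Rps27 itself was not found in the table by symbol.

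Rpl7l1, a relative of Rpl7 with a part in early large subunit assembly, stood at 58.6, 58.5 and 43.2 CPM in naive and 370, 286 and 237 CPM in activated libraries. It was 344, 284 and 264 CPM in tolerized and 271, 247 and 326 CPM in inflamed libraries. The log2 change in activated cells was 2.45 ± 0.18 (limma adjusted p = 1.1e-06), and that of Rpl7 was 0.33 ± 0.10 (adjusted p = 0.0105), which was 0.05 and not called with library size alone. Per library, Rpl7l1 had 0.0302, 0.0289 and 0.0238 times the reads of Rpl7 in naive cells and 0.146, 0.125 and 0.0975 times in activated cells.

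Rpl22l1, the paralog of Rpl22, stood at 153, 175 and 167 CPM in naive, 136, 222 and 188 CPM in activated, 115, 180 and 154 CPM in tolerized and 97.3, 176 and 152 CPM in inflamed libraries. The groups overlapped, the first library was the lowest of every group, and the change of 0.12 ± 0.24 in activated cells was not called (limma adjusted p = 0.677). Without the first antigen-exposed libraries it was 0.34 and called in activated cells (adjusted p = 0.0286), and 0.05 and 0.03 in tolerized and inflamed cells, not called. Rpl22, which is needed for normal development of alpha-beta T cells, was 452 ± 28.2 CPM in naive and 536 ± 6.17 CPM in activated cells (SD, n = 3). It was called higher in activated cells at 0.25 ± 0.09 (adjusted p = 0.0253), a call lost when single libraries were left out, and the change was −0.03 with library size alone. Of the other parents, Rpl3 rose by 0.54 in activated cells, Rpl10 changed by 0.31 (0.03 with library size alone), Rpl39 by −0.40 (adjusted p = 0.101) and Rps4x by −0.08 (adjusted p = 0.488).

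The P stalk, which recruits the elongation factors, is formed by Rplp0, Rplp1, Rplp2 and Rpl12. None of the 4 was called higher and 2 were called lower in activated cells, where 35.3% of all genes were called higher and 35.3% lower. The list median was −0.24. Rplp1 fell from 2091, 2137 and 2032 CPM in naive to 1616, 1645 and 1381 CPM in activated, 1230, 1441 and 1433 CPM in tolerized and 1374, 1670 and 1496 CPM in inflamed libraries. It was below naive in every antigen-exposed library, with a log2 change of −0.44 ± 0.11 (limma adjusted p = 0.00535) in activated cells. Without the 2 macrophage-rich naive libraries, which left 1 naive library, the change was −0.44. Rpl12 changed by −0.25 ± 0.10 (adjusted p = 0.0438), Rplp2 by −0.22 ± 0.10 (adjusted p = 0.0769) and Rplp0 by 0.15 ± 0.11 (adjusted p = 0.234). The call of Rpl12 in activated cells was lost when single libraries were left out.

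Rpl5 and Rpl11 join the 5S ribosomal RNA and can bind MDM2 when free. Rpl5 stood at 2717, 2869 and 2559 CPM in naive and 2283, 2048 and 2401 CPM in activated libraries, a log2 change of −0.28 ± 0.10 (limma adjusted p = 0.029), a call also lost when single libraries were left out. Rpl11 stood at 1035, 1068 and 1020 CPM in naive and 1237, 1164 and 1083 CPM in activated libraries, a change of 0.16 ± 0.08 that was not called (adjusted p = 0.0999). In inflamed cells Rpl11 was called at 0.20 ± 0.08 (adjusted p = 0.0445), a call lost when single libraries were left out, against −0.14 with library size alone and −0.01 with upper quartile factors. Rpl5 lay below its naive libraries in every antigen-exposed library and Rpl11 above them.

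The list of proteins at the exit of the nascent chain tunnel held Rpl4, Rpl17, Rpl19, Rpl23a, Rpl26, Rpl31, Rpl35 and Rpl39. Of these 8, 2 were called higher and 1 lower in activated cells (37.5%), where 70.7% of all genes were called. The list median was −0.02. Rpl4 rose from 2545 ± 136 to 3558 ± 380 CPM and Rpl35 from 554 ± 19.8 to 805 ± 148 CPM, while Rpl17 fell from 1771 ± 30.1 to 1263 ± 29.1 CPM (SD, n = 3). Among proteins of the messenger RNA channel, Rps2 and Rps26 were called higher and Rps3 lower, and Rps14, Rps28 and Rpsa changed by −0.26, −0.22 and 0.08 and were not called. Both lists had members called in each direction, as had all genes (35.3% higher and 35.3% lower), and 42.9% of the channel list was called.

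Of the 13 members that are Diamond-Blackfan anaemia genes in humans, 2 were called higher and 7 lower in activated cells, or 69.2%, where 70.7% of all genes were called (35.3% lower), with a median of −0.26. The counts were 2 and 8 in tolerized cells (76.9%, where 73.3% of all genes were called), with a median of −0.28. In inflamed cells they were 4 and 6 (76.9%, where 72.4% of all genes were called), with a median of −0.17. Rpl15 and Rps26 were the higher ones in activated cells.

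Among members with tasks outside the ribosome, Rps6, the substrate of the S6 kinases, stood at 2281, 2336 and 2120 CPM in naive and 2400, 2134 and 2264 CPM in activated libraries. The change was 0.01 ± 0.09 (limma adjusted p = 0.908) and was −0.26 and called with library size alone. Rpl13a, of the interferon-gamma-induced GAIT complex that holds back inflammatory messages, fell from 1871, 1908 and 1781 CPM in naive to 1607, 1471 and 1404 CPM in activated libraries. The change was −0.31 ± 0.09 (adjusted p = 0.0106), or −0.33 without the 2 macrophage-rich naive libraries, which left 1 naive library. Rps3, which can also bind NF-kappa-B, changed by −0.23 ± 0.09 (adjusted p = 0.0402), a call lost when single libraries were left out. With that 1 naive library its change was −0.20 in activated cells, and Rpl5, Rpl7, Rpl10, Rpl12 and Rpl22 changed by −0.28, 0.32, 0.34, −0.21 and 0.24. Rpsa, the laminin receptor precursor, Rpl38, needed for translation of Hox messages, and Rps27a, made as a fusion with ubiquitin, changed by 0.08, −0.06 and 0.07 in activated cells and were not called.

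The 3 antigen-exposed groups were then compared with each other, which asks whether anti-CD154 or LPS moved these genes in cells that had met antigen. Limma called 0 of 79 members in tolerized against activated cells, where 0% of all genes tested were called, and limma-voom called 0. At an unadjusted p under 0.05 there was 1 member, and the smallest adjusted p was 1. In inflamed against tolerized cells limma and limma-voom called 0 members, where limma called 2.78% of all genes (1.66% higher and 1.12% lower). At an unadjusted p under 0.05 there were 3, and Rpl35a had the smallest adjusted p, 0.18. In inflamed against activated cells both tools called 0 members, where limma called 1.92% of all genes (1.54% higher and 0.384% lower). At an unadjusted p under 0.05 there were 2, and Rpl26 had the smallest adjusted p, 0.415. These comparisons share libraries pairwise.

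The estimates were small. The changes ran from −0.28 to 0.10 for tolerized against activated, from −0.10 to 0.24 for inflamed against tolerized and from −0.37 to 0.22 for inflamed against activated cells. All 79 intervals at 95% lay within a 2-fold change in either direction in each of the 3 comparisons, with the widest bounds at 0.80, 0.62 and 0.90. Inflamed cells had the higher estimate for 73 of 79 members against tolerized cells, with a median of 0.09 beside −0.01 for all genes. Against activated cells the count was 63 of 79 and the median 0.08 beside −0.01. Tolerized cells had the higher estimate for 28 of 79 against activated cells, with a median of −0.03 beside 0.01. Of all 12499 genes, 6006, 6027 and 6563 had the higher estimate in these comparisons, in the same order. Members share libraries and scaling, so these counts are not of independent replicates. The libraries of inflamed and tolerized cells did not overlap for 18 of 79 members, all 18 higher in inflamed cells, where 9.1% of all genes did not overlap and were higher and 9.18% did not overlap and were lower. Among the 18 were Rps2 (3445 to 3605 against 2881 to 3165 CPM), Rps6, Rpl5 and Rpl12.

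Levels were also set per kilobase of deposited exon length, in 76 members without the paralogs. In naive cells they ran from 161 CPM per kb (Rps15a, whose deposited length of 5134 bases is unusually long) to 4458 CPM per kb (Rplp1), with a median of 1719. Rps12 was the highest in the other groups, at 3772, 3911 and 4360 CPM per kb in activated, tolerized and inflamed cells, where Rplp1 stood at 3306, 2923 and 3233. Rps12 went from 2269 CPM per kb in naive cells to that place. Rps18, of the small subunit's head, was 2747 CPM per kb in naive cells and changed by 0.08 in activated cells (limma adjusted p = 0.524). Across the 79 members, the change in activated cells had a Spearman rho of 0.107 with exon length and −0.414 with the naive level. The naive level enters both sides of the second value, and genes are not independent replicates.

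Introns of ribosomal protein genes are known as hosts of small nucleolar RNAs. In GENCODE M21, 30 of the 82 members (36.6%) held a small nucleolar RNA gene on their own strand, against 1.2% of 21924 protein-coding genes. Among the members called higher in all 3 antigen-exposed groups 9 of 22 were hosts, including Rpl4, Rpl7a and Rps2, and among those called lower 4 of 11.

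Some ribosome genes fall outside the symbol rule. Fau, whose product is cut to ubiquitin-like FUBI and the small subunit protein eS30, fell from 1463, 1490 and 1450 CPM in naive to 1033, 975 and 968 CPM in activated libraries. It was below naive in every activated library, with a log2 change of −0.56 ± 0.09 (limma adjusted p = 0.000202). Rpl36al rose by 0.65 ± 0.09 (adjusted p = 0.000129), and Gnb2l1, which codes for RACK1, changed by 0.17 ± 0.10 (adjusted p = 0.133).

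Lists of genes that make and assemble ribosomes were measured beside the members. In activated against naive cells 30 of 31 genes of ribosomal RNA synthesis and processing were called higher and none lower. Of all genes, 35.3% were called higher, and the list median was 2.38. Nop58, of the small nucleolar RNA protein core, went from 70.7, 73.7 and 67.2 CPM to 998, 774 and 679 CPM, a log2 change of 3.50 ± 0.18 (limma adjusted p = 1.46e-07). Of 20 chaperones, importins and assembly factors for ribosomal proteins, 20 were called higher, with a median of 1.64. Pno1, of small subunit assembly, went from 19.0 ± 0.333 to 212 ± 45.1 CPM (SD, n = 3), and the importins Ipo5 and Ipo7 changed by 2.88 and 2.68. The medians in tolerized and inflamed cells were 2.41 and 2.45 for the first list and 1.67 and 1.68 for the second, and neither list had a called gene in inflamed against tolerized cells.

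Of a chosen list of 18 translation genes with TOP messages, 13 were called higher and 1 lower in activated cells (77.8%). Of all genes, 70.7% were called (35.3% higher), and the list median was 1.13. Npm1, Eif3l, Hnrnpa1 and Nap1l1 changed by 2.90, 1.89, 1.80 and 2.41. Naca went from 1803, 2039 and 2133 CPM to 6541, 5142 and 3648 CPM. Tpt1, a growth-related TOP message, was called lower, from 5888, 6440 and 5824 CPM in naive to 2983, 2908 and 3774 CPM in activated libraries, and Eef1a1, an elongation factor, changed by 0.20 (limma adjusted p = 0.328). Of 18 genes of mTOR signalling and LARP1-type binding proteins, 12 were higher and 3 lower (83.3% called), with a median of 0.68. Larp1, which binds TOP messages, went from 226, 222 and 190 CPM to 1122, 838 and 746 CPM, and Larp4 and Eif4e changed by 2.54 and 2.74. These lists were compared by counts and medians only, and the difference between them and the members was not tested.

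**Figure D4:**
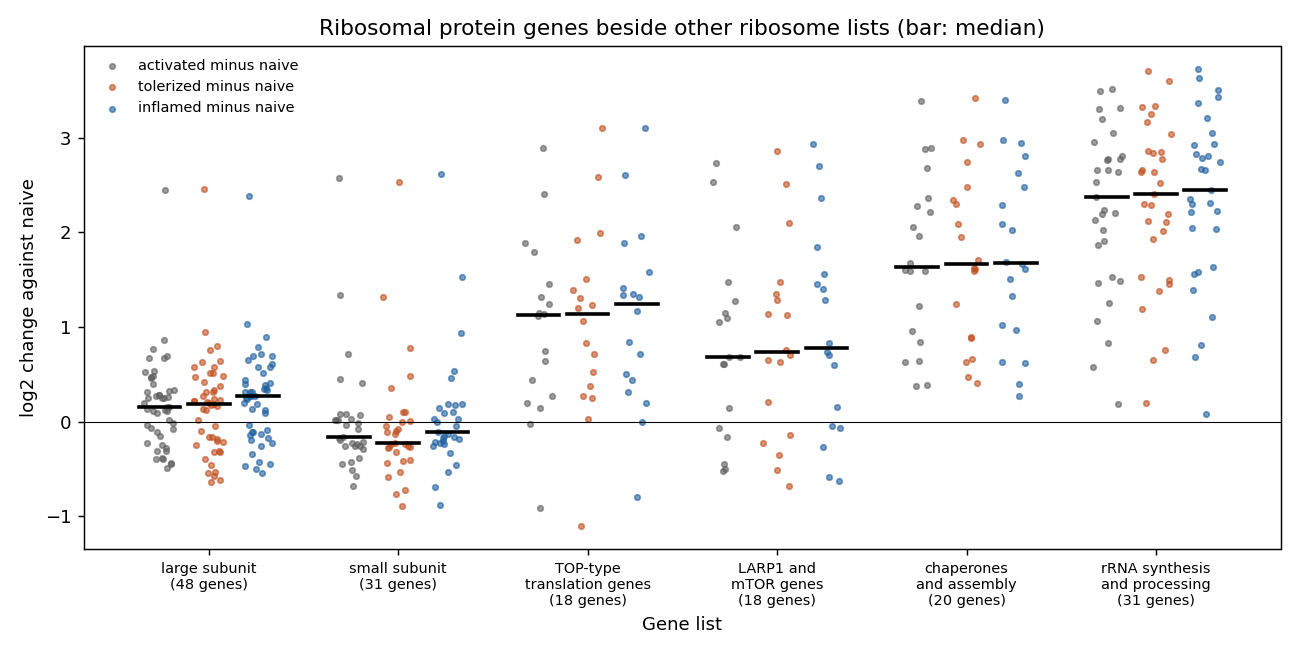
Log2 change against naive cells (vertical axis) of the ribosomal protein genes of each subunit and of 4 other gene lists, 1 point per gene, grey for activated, orange for tolerized and blue for inflamed cells; black bars are list medians. The subunit lists are centred near 0 (medians from −0.23 to 0.27), and the list of ribosomal RNA synthesis and processing lies highest (medians 2.38 to 2.45).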

How the data were processed

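RNA was sequenced on a HiSeq 2000 from 12 libraries of sorted KB5 CD8 T cells, 3 per group, per the labels' protocols. The protocol for RNA extraction names mouse embryonic fibroblasts in culture, at odds with the other labels. The submitters' processing notes name TopHat2, bedtools, DESeq, mm10 and GRCm38 without versions or roles. The deposited table holds whole read counts per gene, written with commas and not normalized by the authors, and exon lengths. A check of the unit took the values with commas for text, so their unit stands as other and limma-trend replaced the planned count test. For the fits the commas were removed and the values used as read counts.

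CPM were computed with factors by the trimmed mean of M values (0.897 to 1.22, trims of 30% and 5%). The filter asked for 0.258 CPM, or 10 reads in a library of median size, in at least 3 libraries, and for 15 reads in total. Log2(CPM + 1) was fitted with limma 3.58.1 in R 4.3.3 over the 12 libraries together, and p-values were adjusted by Benjamini-Hochberg over 12499 genes in each comparison, 2-sided. The fit was tested first on simulated reads in which few genes changed, as many up as down. That setting cannot show how the scaling acts when most genes change. Reads are not independent molecules.

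Ribosomal protein genes and lists were chosen with earlier results of these data known. Genes named were, per comparison, the 6 called members with the largest rise and the 6 with the largest fall at 10 CPM or more, the members of the stalk, 5S, paralog, parent and extra-ribosomal lists, the 3 highest per exon length, and the 4 genes of each other list with the smallest adjusted p. A few genes of these lists are not reported here. Further genes named were chosen after their values were seen, as were the markers' and first-library alternatives. Same-numbered libraries deviated together in tolerized against activated (correlations 0.19 to 0.60) and inflamed against activated cells (0.15 to 0.64), and not in the other 4 comparisons. All 3 tolerized libraries correlated best with the activated library of their own number, but only 1 of 3 inflamed libraries did. Such a pairing comes from the data and not from the labels. Alternatives were other scalings, filters, pseudocounts, limma-voom, a replicate block, fits of 2 groups and each library left out.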

Additional observations from a re-analysis of the deposited data

How the results depend on the processing

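Pseudocounts of 0.1 and 5, the other filters, limma-voom and fits with only the 2 groups compared kept every count of called members within 1.5 times its value and every median within the spread between libraries. The scaling did not. With library size alone the members called higher and lower were 12 and 41 in activated, 11 and 43 in tolerized and 15 and 40 in inflamed against naive cells, with medians of −0.26, −0.31 and −0.21, and the median of inflamed against tolerized was 0.0745. With upper quartile factors they were 12 and 33, 13 and 38, and 16 and 32, with medians of −0.18, −0.23, −0.083 and, for inflamed against tolerized, 0.11. Of all 12499 genes, 9187, 9446 and 9351 were called against naive with library size alone and 9089, 9348 and 9243 with upper quartile factors. Median-of-ratios factors gave medians of −0.0472 in tolerized against naive and 0.10 in inflamed against tolerized. Shifts in these factors move all genes alike. Changes of direction are given here only for named members called in the main fit or under the other scaling. Members called in neither can also have changed sign and are not listed. With library size alone the listed ones in activated cells were Rpl22 (−0.0261) and Rps6 (−0.26). In tolerized cells they were Rpl10 (−0.0923), Rpl11 (−0.19), Rps6 (−0.31) and Rpsa (−0.21). In inflamed cells they were Rpl10 (−0.0634), Rpl11 (−0.14), Rpl22 (−0.0144), Rps4x (−0.30) and Rps6 (−0.18). With upper quartile factors they were Rpl10 in tolerized (−0.0071) and Rpl11 in inflamed cells (−0.0111). A replicate block over all libraries gave 25 and 22, 25 and 27, and 30 and 15 called members against naive cells. It called 8824, 9169 and 9027 of all 12499 genes in those comparisons. Between antigen-exposed groups it gave 0 called members, as without the block. By the data the numbers pair there in tolerized against activated cells. In inflamed against activated cells the pairing was weaker, as 1 of 3 inflamed libraries matched its own number best. With the block and only the 2 groups compared, 14 and 8 were called in activated and 13 lower in tolerized cells, with fewer samples in the fit. Of all 12499 genes, 7457 and 8444 were called in those fits. Without the 2 macrophage-rich naive libraries, 12 and 8 were called in activated, 15 and 10 in tolerized and 7 lower in inflamed cells. Without the first antigen-exposed libraries the median of inflamed against tolerized was 0.12. Shares without the 10 largest other genes were 12.06%, 10.51%, 10.11% and 10.72%. Leaving out each library in turn gave 18 to 28 higher and 12 to 19 lower in activated (median −0.0003 to 0.06), 19 to 29 and 18 to 27 in tolerized (−0.04 to 0.01) and 27 to 32 and 10 to 14 in inflamed against naive cells (0.10 to 0.15), and 0 called between antigen-exposed groups, with medians of −0.08 to 0.01, 0.0909 to 0.11 and 0.03 to 0.10. Of the named members called, 17 of 21, 17 of 23 and 17 of 19 kept their call each time; Rpl12, Rpl22, Rpl5 and Rps3 lost it in activated, Rpl10, Rpl12, Rpl38, Rpl39, Rpl5 and Rps3 in tolerized and Rpl10 and Rpl11 in inflamed cells. The cause of these losses was not tested. The members tested had at least 557 reads in each library.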

Other observations

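Some target genes of p53 were called between inflamed cells and the other antigen-exposed groups, while Rps27l, the ribosomal protein gene that p53 is known to induce, did not pass the test there. Of 10 targets and partners, 4 were called higher and 0 lower in inflamed against tolerized cells, where 1.66% of all genes were called higher. The counts were 3 and 0 in inflamed against activated cells, where 1.54% of all genes were called higher. They were 0 and 0 in tolerized against activated cells, where limma called 0 of all genes and 0 of the 10 had an unadjusted p under 0.05. Cdkn1a, which stops the cell cycle, stood at 3.34, 3.62 and 4.37 CPM in tolerized and 36.9, 26.5 and 15.8 CPM in inflamed libraries, a log2 change of 2.45 ± 0.39 (limma adjusted p = 0.00651). Phlda3, an inhibitor of AKT, stood at 2.55, 2.19 and 2.97 CPM and 9.48, 8.10 and 8.20 CPM, a change of 1.43 ± 0.18 (adjusted p = 0.00179). Ccng1, a cyclin, was 139 ± 11.9 and 224 ± 19.0 CPM (SD, n = 3), a change of 0.69 ± 0.10 (adjusted p = 0.00426), and Zmat3, an RNA-binding protein, changed by 0.90 ± 0.20 (adjusted p = 0.0425). Each of the 4 had its 3 inflamed libraries above its 3 tolerized ones. Against activated cells, Phlda3, Ccng1 and Cdkn1a were called higher in inflamed cells, at 1.15, 0.60 and 1.96. Mdm2 changed by −0.10 (adjusted p = 0.646) and Rps27l by 0.08 ± 0.14 (adjusted p = 0.895) in inflamed against tolerized cells. Neutrophil markers also moved with LPS, summing to 10.8 to 198 CPM in inflamed and 1.79 to 9.90 CPM in tolerized libraries, and their part in this was not tested.

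Of 12 genes of ribosome rescue and storage, 8 were called higher and 3 lower in activated against naive cells (91.7%). Of all genes, 70.7% were called there, and the list median was 0.66. Ascc3, the helicase that takes apart collided ribosomes, was the gene of this list called between antigen-exposed groups. It stood at 120, 106 and 136 CPM in activated and 191, 167 and 183 CPM in inflamed libraries, which did not overlap, a log2 change of 0.58 ± 0.12 (limma adjusted p = 0.0259). In tolerized libraries it was at 152, 123 and 117 CPM, and the change in inflamed against tolerized cells was 0.47 ± 0.12 (adjusted p = 0.0583).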
